A study of Mus musculus with 4 samples.

Results

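The proteasome subunit genes were examined in RNA from sorted mouse pro-B cells with and without induced deletion of Cnot3. The members are all genes of the deposited tables named Psma, Psmb, Psmc or Psmd with a number, apart from the immunoproteasome genes Psmb8, Psmb9 and Psmb10, and number 36 of 23312 measured genes. The proteasome is the protease complex that degrades proteins tagged with ubiquitin. Its 20S core is a barrel of alpha rings, which gate the entry, and beta rings, which hold the proteolytic sites. The 19S particle caps the core, with a base of ATPases that unfold substrates and a lid that removes ubiquitin. In immune cells, the catalytic beta subunits can be replaced by the immunoproteasome subunits, which shape the peptides shown on MHC class I.

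The cells were B220+CD43+ bone marrow cells of C57BL/6 mice. Every mouse carried RERTCre, a tamoxifen-inducible Cre recombinase, and received 1 mg tamoxifen on days 1, 2, 4 and 7 before analysis on day 10. The compared groups were Cnot3 fl/fl, with loxP-flanked Cnot3 alleles, and Cnot3 +/+, with wild-type alleles, and each was represented by 2 mice with 1 library per mouse. The Cnot3 protein belongs to CCR4-NOT, a deadenylase complex that trims poly(A) tails, and the comparison asked which mRNAs differ between the genotypes. The labels state neither the promoter of the Cre driver nor the age of the mice.

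Values are FPKM, a fragment number scaled to transcript length and library size. Paired values are given for replicate 1 and then replicate 2. Total depth is unknown because no counts are in them, and the spacing of low values gave relative depths of 0.748 to 1, with 1 for the deepest library. Cnot3 +/+ replicate 1 was the shallowest library by this estimate, and it also stood apart in sex-linked transcripts, with Xist at 0.024 FPKM against 54.3 to 63.1 FPKM in the other libraries and the Y-linked gene Eif2s3y at 29.3 FPKM against at most 0.027 FPKM. The members' median log2 fold change, their signs and the leading differences are therefore also given without it. Cnot3 itself measured 39.0 and 40.3 FPKM in Cnot3 fl/fl against 41.6 and 39.3 FPKM in Cnot3 +/+ libraries, a whole-gene value that does not check the deletion. Markers of the labelled cell type were present, among them the B-cell receptor gene Cd79a with 62.4 and 66.2 FPKM in Cnot3 fl/fl against 110.5 and 152.1 FPKM in Cnot3 +/+ libraries. The plasmacytoid dendritic cell gene Siglech was at 1115 to 1456 FPKM, and T and NK, neutrophil, erythroid and plasma cell markers were detected too. None of the markers in 7 lists was at 0 in any library, and the lowest was the dendritic gene Xcr1 at 0.13 to 0.15 FPKM. In such bulk samples, fewer cells of a type and less RNA per cell cannot be told apart.

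No proteasome subunit gene passed the test between the genotypes. Values averaged slightly higher in Cnot3 fl/fl libraries for most members, led by the lid genes Psmd6 and Psmd13 and the ATPase gene Psmc2, and lower for a few, led by the beta-ring gene Psmb3. Of the 36 members, 34 had a mean of at least 1 FPKM and were tested. Among these 0 were called higher and 0 lower (limma, adjusted p under 0.05), where 6.22% of the 11017 genes tested were called higher and 3.28% lower. The smallest adjusted p was 0.059, for Psma1. In the authors' deposited table, which tested 35 members among 12154 genes, 0 members were marked significant, where 6.59% of those genes were. There 0 members had an unadjusted p under 0.05, where 19.2% of the genes did, and the members' smallest q-value was 0.263, for Psmd6.

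The members' log2 fold changes, on the log2(FPKM + 1) scale, lay between -0.39 and 0.39. They were positive in 25 of the 34 and had a median of 0.12, whereas 49.0% of all tested genes were positive and their median was -0.01. Without Cnot3 +/+ replicate 1 the members' median was 0.06 with 21 positive, and without Cnot3 +/+ replicate 2 it was 0.17 with 29 positive. The typical size of the difference was small, with a median absolute log2 fold change of 0.16 against 0.22 over all tested genes, and 24.8% of all tested genes differed by more than any member. Leaving out Cnot3 +/+ replicate 1 turned the sign of Psmb7, Psmc4, Psmd8 and Psmd9 from positive to negative. It moved the log2 fold changes of Psmd6, Psmd13 and Psmc2 from 0.39, 0.35 and 0.35 to 0.35, 0.27 and 0.25. That of Psmb3 moved from -0.39 to -0.48. At an unadjusted p under 0.05, 10 members were higher and 2 lower. These counts are 29.4% and 5.88% of the members tested, where 18.5% and 15.3% of all tested genes passed the same bound in each direction.

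**Figure D1:**
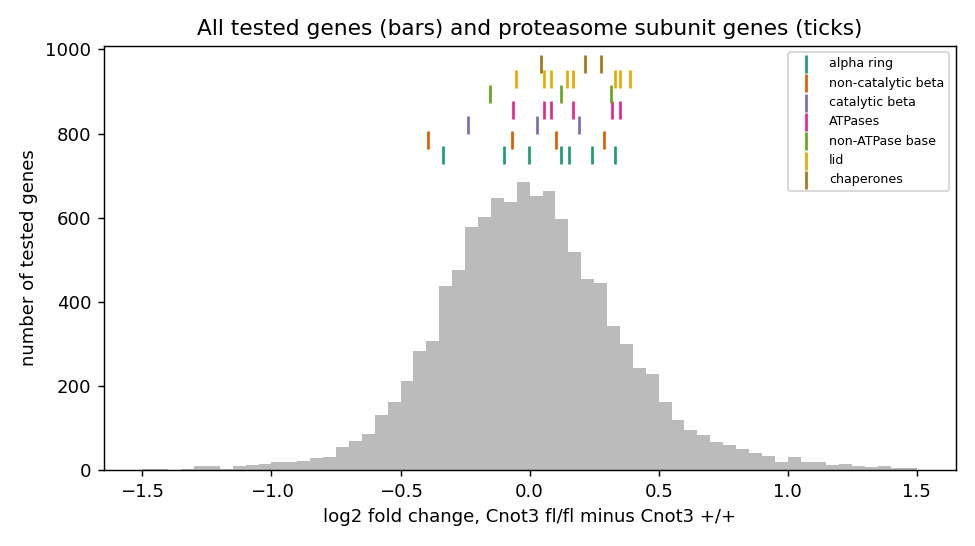
Number of tested genes (grey bars, within 1.5 of 0) by log2 fold change, Cnot3 fl/fl minus Cnot3 +/+, with 1 tick per tested proteasome subunit gene, coloured by role. The ticks span -0.39 to 0.39, inside the bulk of the grey distribution, with 25 of 34 to the right of 0.

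In 20 members both Cnot3 fl/fl libraries lay above both Cnot3 +/+ libraries, and in 4 (Psma3, Psmb3, Psmb5 and Psmd1) both lay below, while 10 overlapped. These are 58.8% and 11.8% of the members, where 32.7% and 31.7% of all tested genes were separated in these directions. Cnot3 +/+ replicate 1 was the lowest library in 27 of the 34 members and Cnot3 fl/fl replicate 2 the highest in 19. Summed over all members, Cnot3 fl/fl libraries were at 2449 and 2552 FPKM and Cnot3 +/+ libraries at 2177 and 2396 FPKM. The sum was thus lowest in the library that also stood apart in depth and sex-linked transcripts, and their part in the result was not tested. The summed level of 5 classical dendritic cell markers was also higher in Cnot3 fl/fl, at 377.5 and 410.1 FPKM against 260.7 and 236.3 FPKM, with 2 of the 4 tested called higher. That of 13 pro-B and B-lineage markers was lower, at 1153 and 1095 against 1279 and 1527 FPKM, with 5 called lower. Of these 13, 10 had negative log2 fold changes. The other 3, Ptprc, Spn and Dntt, were positive without overlap between genotypes, and 0 were called higher. Of 8 neutrophil and monocyte markers 3 (Elane, Ctsg and Itgam) were called higher, where 6.22% of all tested genes were. S100a8, S100a9 and Lyz2 of that list overlapped between genotypes. Of 6 T and NK markers 1, Cd8a, was called higher, while Cd3e, Cd3g and Ccl5 had negative log2 fold changes. The sums overlapped between genotypes for the first list (153.6 to 221.7 against 140.4 to 194.8 FPKM). They also did for the second (690.4 to 819.5 against 572.5 to 697.3 FPKM). Of 7 plasmacytoid dendritic markers (6927 to 8320 against 8032 to 8215 FPKM summed) and 4 plasma cell markers (213.3 to 313.8 against 280.0 to 663.6 FPKM) 1 each was called lower. Of 3 tested erythroid markers 0 passed (21.7 to 39.9 against 28.4 to 63.3 FPKM). The part of these cells in the proteasome values was not tested.

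Levels differed far more between subunits than between genotypes. Mean FPKM, a value per transcript length, ran from 2.40 for the alpha-ring gene Psma3 to 202.8 for Psma7, a ratio of 84.6, and 26 of the 34 tested members lay between 20 and 120 FPKM. After Psma7 the next highest were the beta-ring genes Psmb4 and Psmb2, at 195.3 and 162.8 FPKM, and the next lowest after Psma3 was Psma5 at 8.20 FPKM. Between the replicates of a genotype, the median absolute difference of the members on the log2 scale was 0.066 in Cnot3 fl/fl and 0.14 in Cnot3 +/+, against 0.11 and 0.14 over all tested genes. The RefSeq gene table lists 6 pseudogenes named after members, namely copies of Psma5, Psmb5, Psmb6 and Psmb7. The labels do not say how reads shared with such copies were assigned, so the levels of these genes are uncertain in that respect. Copies listed under other names were not searched for, for Psma3 or any other member.

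**Figure D2:**
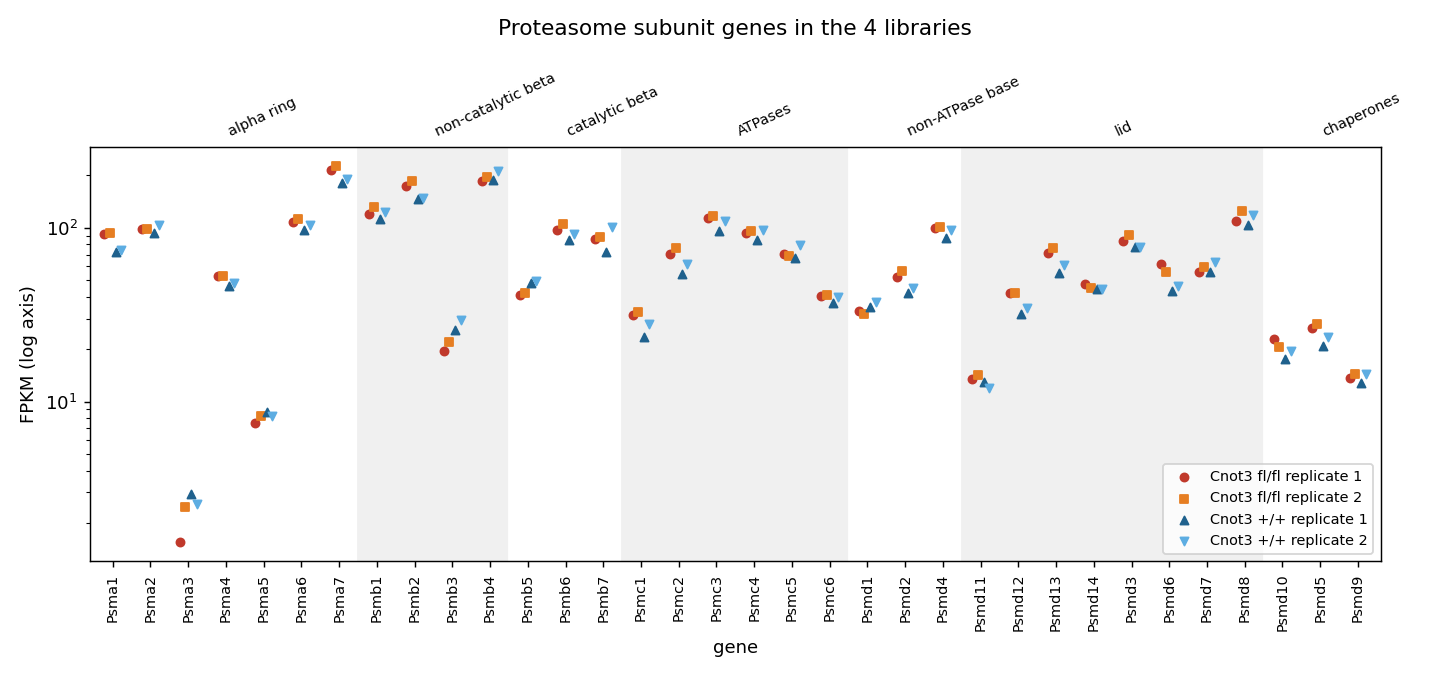
FPKM (log axis) of the 34 tested proteasome subunit genes in each of the 4 libraries, grouped by role from the alpha ring to the base assembly chaperones. Points of a gene lie close together, while genes spread from 2.40 FPKM for Psma3 to 202.8 FPKM for Psma7 on average.

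The members left out of the test are core subunits restricted to other tissues. Psma8, an alpha subunit of the testis, measured 0.462 and 0.337 FPKM in Cnot3 fl/fl against 0.522 and 0.461 FPKM in Cnot3 +/+ libraries. Psmb11, the catalytic subunit of the thymus cortex, was listed at 0 in all 4 libraries. It is the neighbour of Psmb5 on chromosome 14 (mm9 loci 55244146 to 55248393 and 55232956 to 55236832), and Psmb5 was at 40.9 to 49.6 FPKM.

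In the alpha ring, 0 of 7 genes passed and the median log2 fold change was 0.12. Psma1 measured 92.0 and 92.8 FPKM in Cnot3 fl/fl against 71.9 and 74.8 FPKM in Cnot3 +/+ libraries. The groups did not overlap, and the ratio of means was 1.26, with a log2 fold change of 0.33 (SE 0.07, limma adjusted p = 0.059). Psma7 had a ratio of 1.18 and also did not overlap, as did Psma4 and Psma6, at 1.12 and 1.09. Psma2 had nearly equal means, at 98.1 ± 0.0694 and 98.4 ± 7.66 FPKM (SD, n = 2 each), a difference of 0.00 with a 95% interval from -0.23 to 0.23 on the log2 scale. Psma3 went the other way, with 1.56 and 2.49 FPKM in Cnot3 fl/fl against 2.96 and 2.59 FPKM in Cnot3 +/+ libraries. Its log2 fold change of -0.34 had the widest interval of all members, from -0.86 to 0.19 (limma adjusted p = 0.31), and its mm9 locus on chromosome 12 runs from 72075609 to 72116810. Psma5 had a log2 fold change of -0.10.

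Among the tested members, Psmb3 and Psmb5 of the beta ring had the lowest ratios of means after Psma3. Psmb3, a non-catalytic beta subunit on chromosome 11 (97564747 to 97574814, mm9), measured 19.4 and 21.9 FPKM in Cnot3 fl/fl against 25.7 and 29.3 FPKM in Cnot3 +/+ libraries. Its values did not overlap, with a log2 fold change of -0.39 (SE 0.11, limma adjusted p = 0.082). Psmb2, another non-catalytic beta subunit, had the opposite sign, at 173.2 and 185.2 against 145.1 and 147.8 FPKM (log2 fold change 0.29, adjusted p = 0.091). Psmb1 and Psmb4 overlapped between genotypes, with log2 fold changes of 0.10 and -0.07.

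The catalytic subunits did not share a direction. Psmb5, which carries the chymotrypsin-like site, measured 40.9 and 41.9 FPKM in Cnot3 fl/fl against 48.2 and 49.6 FPKM in Cnot3 +/+ libraries. All Cnot3 fl/fl values lay below all Cnot3 +/+ values, and the log2 fold change was -0.24 (95% interval -0.42 to -0.05, limma adjusted p = 0.098). Psmb6, which carries the caspase-like site, was at 97.3 and 104.3 against 85.0 and 91.3 FPKM, again without overlap but with the opposite sign (log2 fold change 0.19, adjusted p = 0.19). Psmb7, which carries the trypsin-like site, was at 85.9 and 88.8 against 72.5 and 101.0 FPKM. The Cnot3 +/+ values of Psmb7 enclosed those of Cnot3 fl/fl, and its log2 fold change was 0.03 (adjusted p = 0.92), or -0.21 without Cnot3 +/+ replicate 1.

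In the 19S particle, 14 of 17 genes had positive log2 fold changes and 0 passed, with a median of 0.14. Psmc2, an ATPase gene, measured 71.0 and 76.6 FPKM in Cnot3 fl/fl against 53.8 and 61.9 FPKM in Cnot3 +/+ libraries. The groups did not overlap (ratio of means 1.28, log2 fold change 0.35, SE 0.10, limma adjusted p = 0.092). Of the other ATPase genes, Psmc1, Psmc3 and Psmc6 were also separated upwards, with log2 fold changes of 0.32, 0.17 and 0.08. Psmc4 and Psmc5 overlapped, at 0.06 and -0.06. Among the remaining base subunits, Psmd2, a scaffold of the base, was at 52.3 and 56.5 against 42.0 and 45.0 FPKM (log2 fold change 0.32). The ubiquitin receptor gene Psmd4 had 0.12, and Psmd1, the other large scaffold, had -0.15, with 33.0 and 31.7 against 35.0 and 37.2 FPKM.

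Of the 8 lid genes, 6 were separated upwards, where 32.7% of all tested genes were, and 2, Psmd7 and Psmd8, overlapped. Psmd6 had the largest positive difference of all members, with 61.7 and 55.5 FPKM in Cnot3 fl/fl against 43.1 and 45.9 FPKM in Cnot3 +/+ libraries. The ratio of means was 1.32 and the log2 fold change 0.39 (SE 0.09, limma adjusted p = 0.062), at chromosome 14 from 14944698 to 14953418 (mm9). Psmd13 was at 71.2 and 76.8 against 54.8 and 61.1 FPKM, on chromosome 7 from 148068292 to 148084541 (ratio 1.28, log2 fold change 0.35, adjusted p = 0.079). Psmd12 had a log2 fold change of 0.33 and very close Cnot3 fl/fl values, 42.2 ± 0.0479 FPKM against 33.3 ± 1.85 FPKM (SD, n = 2 each; adjusted p = 0.065). Psmd14, the deubiquitinating enzyme of the lid, was at 47.3 and 44.7 against 44.2 and 44.3 FPKM. Its log2 fold change of 0.05 had a 95% interval from -0.14 to 0.25. Psmd3 and Psmd11 had 0.17 and 0.14, and Psmd7 and Psmd8 had -0.05 and 0.08. The base assembly chaperones Psmd5, Psmd10 and Psmd9, which leave the finished particle, had log2 fold changes of 0.28, 0.22 and 0.05, with 0 of 3 past the threshold.

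**Figure D3:**
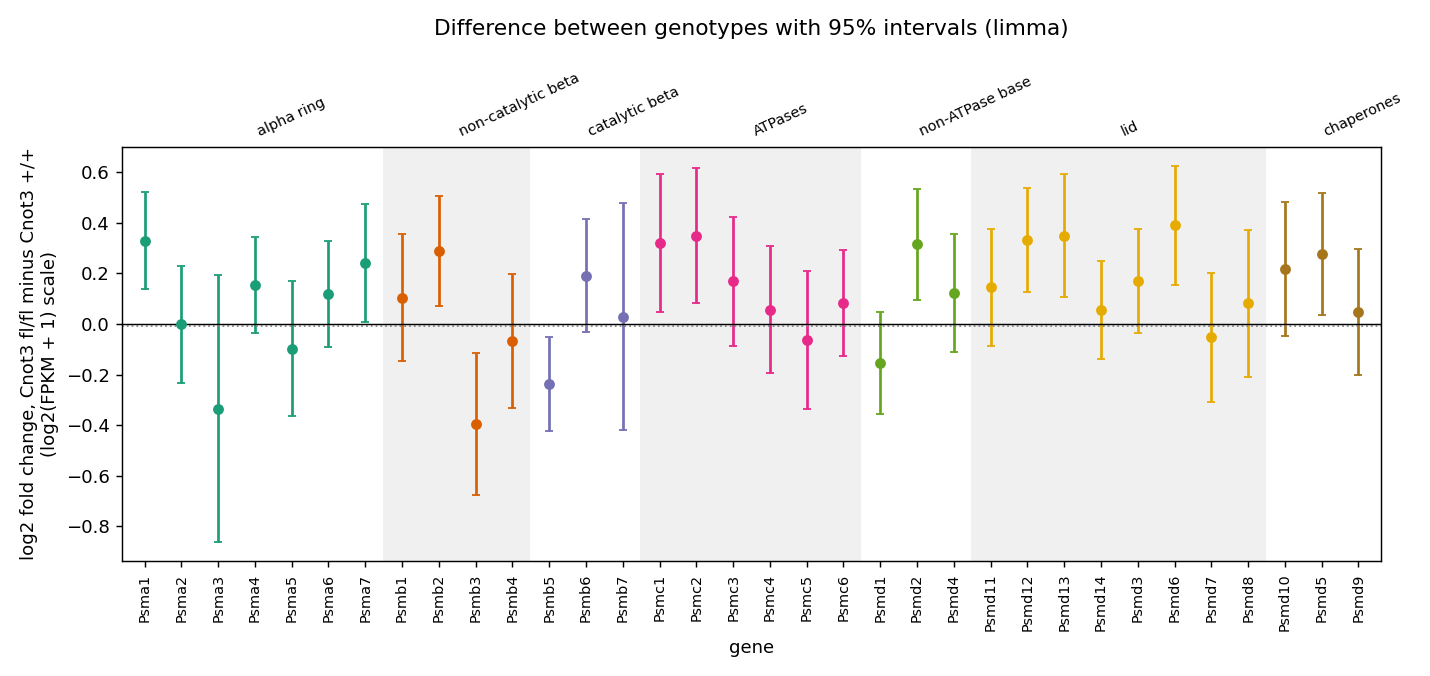
Log2 fold change (Cnot3 fl/fl minus Cnot3 +/+, log2(FPKM + 1) scale) of each tested proteasome subunit gene with its 95% limma interval, unadjusted for the number of genes; the dotted line is the median of all tested genes. In 12 genes the interval leaves 0 out, 10 above it and 2 below it, and all 34 adjusted p-values are above the threshold of 0.05.

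Promoters of the members were taken from the RefSeq promoter table (GRCm38.p6), which holds 250 bases before and 50 after each start, and 29 of 36 members matched, with 31 promoters. Psma8, Psmb1, Psmb2, Psmb7, Psmc3, Psmd3 and Psmd7 have none in it. In all, 5 motifs were searched on both strands. The ETS core CCGGAAG was in 11 of 31 member promoters (35.5%) and in 8.86% of all 32851 promoters of the table. The Sp1 box GGGCGG was in 58.1% and 35.7%, the CCAAT box CCAAT in 38.7% and 37.4%, the antioxidant response element TGACNNNGC in 16.1% and 12.4%, and the NRF1 core GCATGCGC in 6.45% and 2.71%. These shares count all listed promoters, of tested genes or not. Among tested genes with a listed promoter, 10 members held the ETS core and 18 did not, against 1813 and 6452 of all such genes. The Sp1 box gave 18 and 10 against 5761 and 2504, so it was not more frequent in members. The antioxidant response element gave 5 and 23 against 1439 and 6826. The NRF1 core gave 2 and 26 against 541 and 7724, and the CCAAT box 11 and 17 against 3576 and 4689. The 4 promoters printed here belong to genes towards the ends of the range. Psmd6 and Psmd13 hold the ETS core, Psmb3 CCAAT boxes and Psmb5 the antioxidant response element, which CNC-family factors such as Nfe2l1 and Nfe2l2 bind. Psma3, whose log2 fold change of -0.34 lies between those of Psmb3 and Psmb5, is not printed, and its promoter holds CCAAT boxes. Matches to any of the motifs are in capitals, in these windows they do not overlap one another, and a match is a description of letters, not a binding site.
Psmd6 (chr14:14120896-14121195, minus strand): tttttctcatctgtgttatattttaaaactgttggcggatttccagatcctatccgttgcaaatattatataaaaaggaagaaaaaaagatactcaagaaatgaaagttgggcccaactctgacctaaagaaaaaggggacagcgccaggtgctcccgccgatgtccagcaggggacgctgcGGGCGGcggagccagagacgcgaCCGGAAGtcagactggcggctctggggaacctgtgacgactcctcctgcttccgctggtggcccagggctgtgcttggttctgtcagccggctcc
Psmd13 (chr7:140882144-140882443, plus strand): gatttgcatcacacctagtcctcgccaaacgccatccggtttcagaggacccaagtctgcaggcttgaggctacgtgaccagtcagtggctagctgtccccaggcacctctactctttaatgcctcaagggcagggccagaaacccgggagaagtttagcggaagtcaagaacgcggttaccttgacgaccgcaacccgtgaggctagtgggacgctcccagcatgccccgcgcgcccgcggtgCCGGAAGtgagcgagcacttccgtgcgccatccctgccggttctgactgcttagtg
Psmb3 (chr11:97703184-97703483, plus strand): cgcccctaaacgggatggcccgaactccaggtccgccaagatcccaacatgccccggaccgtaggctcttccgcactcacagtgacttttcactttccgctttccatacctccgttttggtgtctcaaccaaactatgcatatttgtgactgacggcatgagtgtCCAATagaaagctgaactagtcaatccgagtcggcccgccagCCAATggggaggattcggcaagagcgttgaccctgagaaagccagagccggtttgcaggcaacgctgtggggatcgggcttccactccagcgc
Psmb5 (chr14:54617946-54618245, minus strand): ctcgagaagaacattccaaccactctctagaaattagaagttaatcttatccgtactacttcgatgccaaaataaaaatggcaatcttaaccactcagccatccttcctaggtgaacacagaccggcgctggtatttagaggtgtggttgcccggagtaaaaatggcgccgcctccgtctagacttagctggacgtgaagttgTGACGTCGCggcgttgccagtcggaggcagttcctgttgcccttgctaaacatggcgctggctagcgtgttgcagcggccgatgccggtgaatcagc

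The Psmd6 promoter holds the Sp1 box from base 183 and the ETS core from base 206 of the window, and the Psmd13 promoter the ETS core from base 245, next to the start. Psmb3 holds a pair of CCAAT boxes, and neither of the ETS and Sp1 motifs was found in this window for Psmb3 or Psmb5. The antioxidant response element was found in 5 members, Psmb5, Psmb6, Psmc6, Psmd9 and Psmd12, whose log2 fold changes ran from -0.24 to 0.33 with a median of 0.08. In the other 23 members with both a test and a promoter the median was 0.12.

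Immunoproteasome genes had higher FPKM values in every library than the constitutive genes they replace. Psmb5, Psmb6 and Psmb7 are among the genes with listed pseudogenes, so their levels and the ratios below are uncertain in that respect. Psmb8, the counterpart of Psmb5, measured 413.6 and 424.9 FPKM in Cnot3 fl/fl against 401.9 and 412.8 FPKM in Cnot3 +/+ libraries. The ratio of Psmb8 to Psmb5 was 10.1 in both Cnot3 fl/fl libraries and 8.33 and 8.32 in the Cnot3 +/+ libraries, with no overlap. Psmb8 itself had a ratio of means of 1.03 between genotypes and Psmb5 one of 0.846. For Psmb9 over Psmb6 the ratio was 2.73 and 2.83 against 2.69 and 3.0, and for Psmb10 over Psmb7 it was 1.93 and 2.05 against 1.99 and 1.46. The last 2 pairs did not order the genotypes. An exact permutation test of 2 against 2 libraries cannot go below p = 0.333, so none was used. Psmb9 measured 266.2 and 294.8 against 228.8 and 274.3 FPKM, and Psmb10 165.9 and 181.6 against 144.0 and 147.6 FPKM. None of the 3 immunoproteasome genes passed, with log2 fold changes of 0.04, 0.16 and 0.25 for Psmb8, Psmb9 and Psmb10 (limma adjusted p = 0.79, 0.43 and 0.13).

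**Figure D4:**
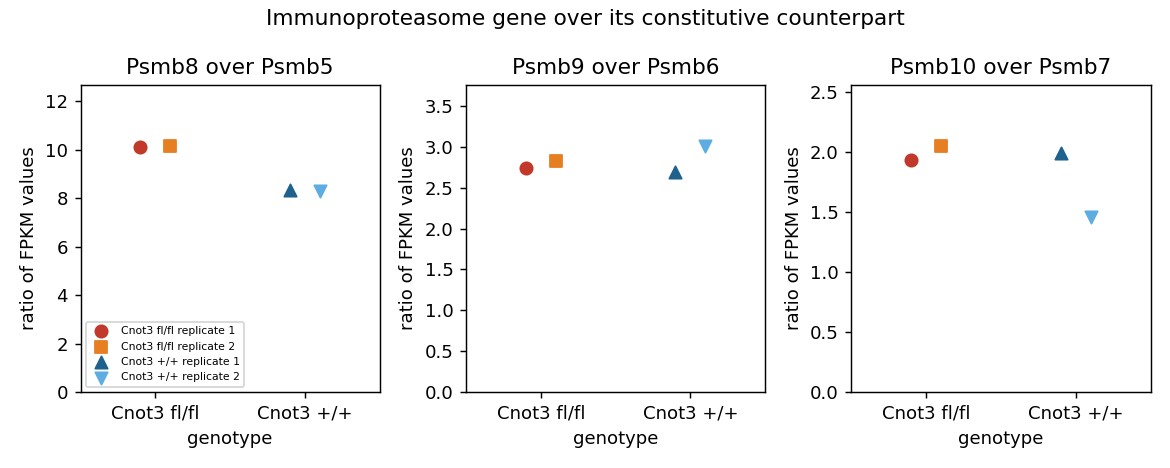
Ratio of the FPKM of each immunoproteasome gene to that of its constitutive counterpart in each of the 4 libraries, with axes from 0. The genotypes are apart for Psmb8 over Psmb5 (10.1 against 8.3) and overlap for the other pairs.

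Among 33 other genes of the pathway, 0 rose, 1 fell and 32 did not pass the test, with a median log2 fold change of 0.01. Of all 11017 genes tested, 6.22% were called higher and 3.28% lower. The gene that fell was Pomp, the maturation protein that assembles the core and is degraded as its first substrate. Pomp measured 153.5 and 165.0 FPKM in Cnot3 fl/fl against 221.9 and 225.4 FPKM in Cnot3 +/+ libraries, with no overlap. The log2 fold change was -0.49 (SE 0.09, 95% interval -0.71 to -0.26, limma adjusted p = 0.043), on chromosome 5 from 148672203 to 148687354 (mm9). The call was lost under several alternatives, among them no filter on low values (adjusted p = 0.074), no variance trend (0.057) and leaving out any 1 of the 4 libraries (0.12 to 0.21). In the authors' deposited table its q-value was 0.14. Psmg2, a core chaperone, was at 14.8 and 14.9 against 17.4 and 20.8 FPKM (log2 fold change -0.34, adjusted p = 0.11). In all, 5 of 6 assembly factors did not pass.

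The small lid-associated subunit Shfm1, also known as Sem1, had a log2 fold change of -0.40, at 269.4 and 271.4 against 340.1 and 376.9 FPKM (limma adjusted p = 0.071). It had the smallest p among 10 ubiquitin receptors, shuttles and deubiquitinases, of which 0 passed. Uchl5, a deubiquitinase of the base, had 0.21. Of 5 activators and inhibitors 0 passed, with Psme2, a subunit of the interferon-inducible activator, at 10.1 and 12.3 against 13.2 and 13.9 FPKM (adjusted p = 0.21). Its partner Psme1 had a log2 fold change of 0.01.

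Regulators of proteasome gene expression did not pass either, 0 of 4. Nfe2l1, the transcription factor that raises proteasome genes when the proteasome is impaired, measured 39.5 and 40.7 FPKM in Cnot3 fl/fl against 45.3 and 42.7 FPKM in Cnot3 +/+ libraries (log2 fold change -0.13, limma adjusted p = 0.29). Nfe2l2, its stress-responsive relative, was at 34.7 and 37.9 against 32.1 and 29.1 FPKM (log2 fold change 0.24, adjusted p = 0.15). Of 5 ubiquitin and unfolding genes 0 passed. Uba1, the enzyme that activates ubiquitin, was at 145.0 and 148.3 against 105.8 and 116.4 FPKM (log2 fold change 0.40, adjusted p = 0.057), and it passed with quantile normalization (adjusted p = 0.048) and with robust estimation (0.049).

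**Figure D5:**
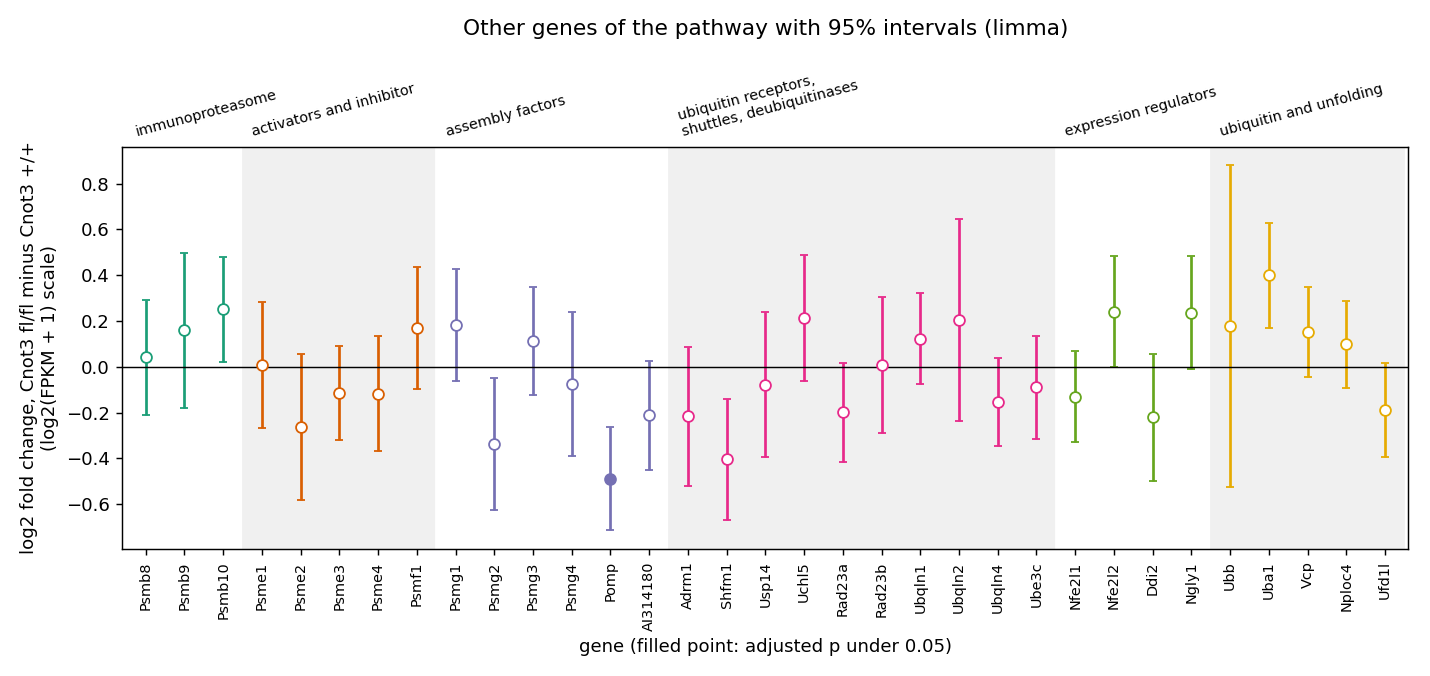
Log2 fold change (Cnot3 fl/fl minus Cnot3 +/+) with 95% limma intervals for 33 other genes of the proteasome pathway, in 6 groups; a filled point passed the adjusted threshold. Pomp, at -0.49, is the only filled point, and the widest interval belongs to Ubb.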

How the data were processed

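Per the labels' protocols, total RNA of the sorted cells was made into libraries with a stranded mRNA kit. Build mm9 and, in no stated order, Cuffnorm 2.2.1, Cufflinks 2.2.1, Bowtie2 2.2.3.0, TopHat2 2.0.13 and bcl2fastq 1.8.4 are listed in the submitters' processing notes. Annotation, filters and scaling are not stated there. Per the file headers, the authors deposited FPKM for 23312 genes per library. Their deposited comparison table also holds a q-value and a p-value for each gene. Where the start coordinates count from is not stated.

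Values were transformed to log2(FPKM + 1). The 11017 genes that averaged at least 1 FPKM were fitted with limma 3.58.1 in R 4.3.3 (eBayes with trend, genotype as the only term, two-sided), with Benjamini-Hochberg adjustment over these genes. The fit had 2 residual and 2.69 prior degrees of freedom. Intervals are for single genes, unadjusted. The fit was tested on simulated data. Nothing says that the libraries share litters or days. Paaf1, on the pathway list, was not analysed here, and 1 gene of that list is not reported here.

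The members and gene lists were chosen with earlier results of these data known. Every member was described. Library values and statistics were given for members past the threshold, the 3 largest differences in each direction and the catalytic genes. From the pathway list they were given for genes past the threshold, the immunoproteasome genes, Nfe2l1 and the smallest p in each group. Other genes were named after their values were seen.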

Additional observations from a re-analysis of the deposited data

How the results depend on the processing

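Alternatives were pseudocounts of 0.1 and 5 FPKM, no filter, a minimum mean of 5 FPKM, quantile normalization, equal median ratios, eBayes without trend or robust, a replicate block, and leaving out each library. The count of members called was 0 in each direction under every one of these, and the members' smallest adjusted p lay between 0.051 and 0.23. Their median log2 fold change ran from 0.06 to 0.17 when 1 library was left out. The counts over all genes moved more, from 685 higher and 361 lower to 4 and 1 with no filter, 242 and 69 without trend, 2 to 18 higher and 0 to 13 lower with 1 library left out. With the replicate block 456 were higher and 270 lower, members called stayed at 0 and the call of Pomp was lost (adjusted p = 0.052). The replicates share only a number, and the correlation of the replicate differences across genes was 0.14.

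Of 441 member values under these alternatives, 431 kept their sign and their side of the threshold and 10 changed sign. With quantile normalization Psma2 was at 0.021 and Siglech, otherwise lower in Cnot3 fl/fl, at 0.093. With 1 library left out, log2 fold changes that changed sign ran from -0.080 to 0.077 for Psma2, -0.16 to 0.023 for Psmb4, -0.21 to 0.27 for Psmb7, -0.040 to 0.15 for Psmc4, -0.18 to 0.053 for Psmc5 and -0.15 to 0.042 for Psmd7. They ran from -0.011 to 0.17 for Psmd8, -0.029 to 0.12 for Psmd9, -0.067 to 0.012 for Cnot3, -0.13 to 0.49 for Ubb and -0.088 to 0.10 for Psme1. The libraries whose removal changed a sign were Cnot3 +/+ replicate 1 (Psmb7, Psmc4, Psmd8, Psmd9, Cnot3, Ubb and Psme1), Cnot3 +/+ replicate 2 (Psma2, Psmb4, Psmc5 and Psmd7) and Cnot3 fl/fl replicate 2 (Psmd8, Ubb and Psme1). The cause was not tested. Without counts, no depth-based limit on these values could be given.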

Other observations

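Ubb, which encodes ubiquitin, varied between mice of the same genotype. It measured 359.0 FPKM in Cnot3 fl/fl replicate 1 and 551.0 FPKM in replicate 2, and for Cnot3 +/+ the values were 335.4 and 461.1 FPKM. The library numbered 2 was the higher one in each genotype. The log2 fold change of Ubb between genotypes was 0.18, with a 95% interval from -0.53 to 0.88, which includes 0.

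The members with an ETS core in a listed promoter were Psma6, Psmc1, Psmc2, Psmc6, Psmd2, Psmd4, Psmd6, Psmd11, Psmd12 and Psmd13. All 10 had positive log2 fold changes, from 0.08 to 0.39 with a median of 0.32, whereas 10 of 18 members without it were positive, with a median of 0.05. The same split over all tested genes with a listed promoter gave medians of 0.00 and -0.01, with 49.8% and 49.5% positive. Of these 10 members 9 encode 19S subunits and none passed the test. The ETS core was singled out after the splits for all 5 motifs were seen. For the Sp1 box 15 of 18 members with it and 5 of 10 without it were positive, and for the CCAAT box 8 of 11 and 12 of 17. For the antioxidant response element the counts were 4 of 5 and 16 of 23, and for the NRF1 core 0 of 2 and 20 of 26. These are descriptions of 28 genes that share the same 4 libraries, and they were not tested.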
